A study of Mus musculus with 2 samples.

Results

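Brg1 occupancy was examined at 7 cell-cycle and tumour suppressor genes in mouse embryonic fibroblasts: Cdkn2a, Cdkn2b, Cdkn1a, Ccnd1, Myc, Trp53 and Rb1. The rule names the genes and uses no tag counts, but it was written with earlier results of these data known. Each was taken as a fixed interval of the mm9 genome widened by 20 kb on either side, and the neighbours Cdkn2a and Cdkn2b share an interval, so the 7 genes fill 6 loci. The loci cover 451 of the 2641863 windows of 1 kb in the genome.

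The study compared 2 libraries, a chromatin immunoprecipitation (ChIP) with a rabbit polyclonal antibody against SNF2β/BRG1 and an input made with no antibody. Both came from primary fibroblasts of wild type embryos at E13.5 on a mixed C57BL/6 and 129 background, so the labels separate the groups by the antibody alone. The labels do not say from how many embryos the cells came or at which passage they were used. Nuclei were digested with micrococcal nuclease, an enzyme that cuts between nucleosomes, and sonicated briefly. The ChIP held 13581267 tags and the input 5778620, or 5.35 and 2.27 tags per kb of the autosomes. Neither group was replicated (1 library each), and every test and interval compares the tags of 2 libraries and covers counting error only. The cell type could not be checked against marker genes in these binding data without gene positions on mm9, and this check was not made.

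Brg1 is the ATPase of the Swi/Snf complex, which uses ATP to slide and evict nucleosomes and so changes access to DNA. The genes studied control entry into S phase. Myc and cyclin D1 (Ccnd1) drive it, the inhibitors encoded by Cdkn2a, Cdkn2b and Cdkn1a block the cyclin-dependent kinases, Rb1 encodes the protein that restrains E2F factors until those kinases phosphorylate it, and Trp53 encodes p53, which activates Cdkn1a after DNA damage. Cdkn2a also encodes an alternative product, Arf, that stabilises p53.

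The sequence before the start is shown for 3 genes. Trp53 had the highest ratio of ChIP to input tags at its start edge, and Cdkn1a (2 starts) had the lowest at its edge. Cdkn2b was the inhibitor with a sharp excess just inside its start edge. The sequences are the 250 bases before each start in RefSeq on GRCm38.p6, 5′ to 3′ along the gene, and 4 of the 7 genes matched the promoter table, with 6 starts. They lie at chr11:69580109-69580358 (plus strand) for Trp53, chr4:89311033-89311282 (minus strand) for Cdkn2b, and chr17:29090729-29090978 and chr17:29093519-29093768 (plus strand) for Cdkn1a. All other positions given here are on mm9, and positions were not converted between the builds. Capitals mark matches on either strand to 5 motifs that do not overlap here: TGANTCA (AP-1), TTTNNCGC (E2F), GGGCGG (GC box), CCAAT and TATAAA.
Trp53: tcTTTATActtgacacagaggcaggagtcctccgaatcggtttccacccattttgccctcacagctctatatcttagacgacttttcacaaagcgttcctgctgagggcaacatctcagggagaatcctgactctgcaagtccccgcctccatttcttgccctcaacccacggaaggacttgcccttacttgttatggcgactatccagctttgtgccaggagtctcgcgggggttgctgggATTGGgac
Cdkn2b: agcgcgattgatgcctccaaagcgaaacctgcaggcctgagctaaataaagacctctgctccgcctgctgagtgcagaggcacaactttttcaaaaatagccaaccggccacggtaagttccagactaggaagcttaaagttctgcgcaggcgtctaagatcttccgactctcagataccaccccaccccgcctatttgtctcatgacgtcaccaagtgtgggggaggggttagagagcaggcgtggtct
Cdkn1a start 1: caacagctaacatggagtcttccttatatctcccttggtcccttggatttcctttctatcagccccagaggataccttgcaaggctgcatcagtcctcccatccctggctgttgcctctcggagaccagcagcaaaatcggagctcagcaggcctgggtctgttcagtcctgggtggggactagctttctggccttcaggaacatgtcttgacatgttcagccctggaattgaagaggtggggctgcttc
Cdkn1a start 2: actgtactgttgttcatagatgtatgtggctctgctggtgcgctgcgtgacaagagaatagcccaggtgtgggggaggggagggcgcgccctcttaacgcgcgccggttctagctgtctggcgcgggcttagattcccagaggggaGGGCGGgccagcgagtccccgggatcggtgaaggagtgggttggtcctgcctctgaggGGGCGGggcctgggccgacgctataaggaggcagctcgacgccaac

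The Trp53 sequence held a CCAAT box on its minus strand at positions -8 to -4 from the start, a motif present in 33.8% of 32851 promoters, and a TATAAA on its minus strand at -248 to -243 (12.4% of promoters). The Cdkn2b sequence and that of the first Cdkn1a start held none of the 5 motifs in this window. The second Cdkn1a start had 2 GC boxes, found in 32.7% of promoters. Its 19 CpG dinucleotides contrast with 2 before the first start and with 12 for Cdkn2b and 9 for Trp53, against a median of 6 over all promoters. Of the sequences not shown, the start of Cdkn2a with 40 CpG dinucleotides and 78.4% G and C held an E2F match, present in 4.28% of promoters, and 2 GC boxes. The other Cdkn2a start, with 7 CpG dinucleotides, also held an E2F match, at -244 to -237. No AP-1 match (6.75% of promoters) was found before any of the 6 starts. The matches describe letters only, and binding of these factors was not measured.

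Over whole loci, the ChIP held more tags than the input predicted at all 6 loci. The adjusted exact p was under 0.05 at 5 of them, and 4 also reached the ratio needed for a call. Ratios are ChIP tags over input tags after division by the quotient of the autosomal totals, which is 2.36. A region was called when the exact binomial test gave a Benjamini-Hochberg adjusted p under 0.05 and the ratio was at least 1.5. For loci, intervals and sides the p-values were joined to those of all 50 kb windows. These regions run from 6 kb (the Myc interval) to 172 kb (the Rb1 locus), so they differ from the windows in length. Of 50755 windows of 50 kb across the genome, 4.75% were called higher and 8.34% lower, and their median ratio was 0.904, with 5% of windows under 0.626 and 5% over 1.49. None of the 6 loci was called lower. The loci contain genes, and whether other genes of the genome have ratios as high was not tested.

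Among the drivers, Myc, the transcription factor, lies in a locus (chr15:61796000-61841999) with 657 ChIP tags beside 182 of input, a ratio of 1.53 (exact 95% interval 1.298 to 1.82) and an adjusted exact p of 5.14e-06. Ccnd1, which encodes the cyclin that activates Cdk4 and Cdk6, lies in a locus (chr7:152095000-152145999) with 693 ChIP and 193 input tags and a ratio of 1.52 (1.297 to 1.80, adjusted exact p = 3.41e-06). Both drivers sat just above the ratio of 1.5 needed for a call. They fell just under it, to 1.47 each, when tags of a strand within 5 bp were counted once.

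Among the inhibitors, the Cdkn2a and Cdkn2b locus (chr4:88900000-88977999) held 675 ChIP and 161 input tags. Its ratio of 1.78 (1.496 to 2.13, adjusted exact p = 4.91e-10) was the highest of the 6 and above 98.7% of the 50 kb windows. The Cdkn1a locus (chr17:29207000-29257999), which holds the gene for p21, had 595 and 147 tags and a ratio of 1.72 (1.43 to 2.07, adjusted exact p = 4.91e-08), above 98.3% of windows.

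The tumour suppressors Rb1 and Trp53 had the lowest ratios over whole loci. The Rb1 locus (chr14:73574000-73745999), with 172 kb the longest, held 1481 ChIP and 491 input tags. Its ratio of 1.28 (1.16 to 1.42) had an adjusted p of 3.74e-05 but missed the ratio of 1.5. The Trp53 locus (chr11:69373000-69425999) held 516 and 179 tags and a ratio of 1.22 (1.03 to 1.46, adjusted exact p = 0.0643). With a scaling by sparsely tagged windows, which raises every ratio 1.29 times, both were called, at 1.66 for Rb1 and 1.58 for Trp53.

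Of the 15 pairs of loci, 4 differed by an exact 95% interval of the quotient above 1, namely the Cdkn2a and Cdkn2b locus and the Cdkn1a locus, each over Rb1 and Trp53. The quotient of the highest to the lowest ratio was 1.45 (1.13 to 1.87). These intervals were not adjusted for the number of pairs. No neighbours in the order could be told apart. Input tags were not evenly spread either: relative to the autosomal mean the input density was 0.910 at Cdkn2a and Cdkn2b and between 1.26 and 1.74 at the other 5 loci. The value at Cdkn2a and Cdkn2b includes 17 windows of 1 kb that held no tags of either library, and its interval alone had 1.23.

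**Figure D1:**
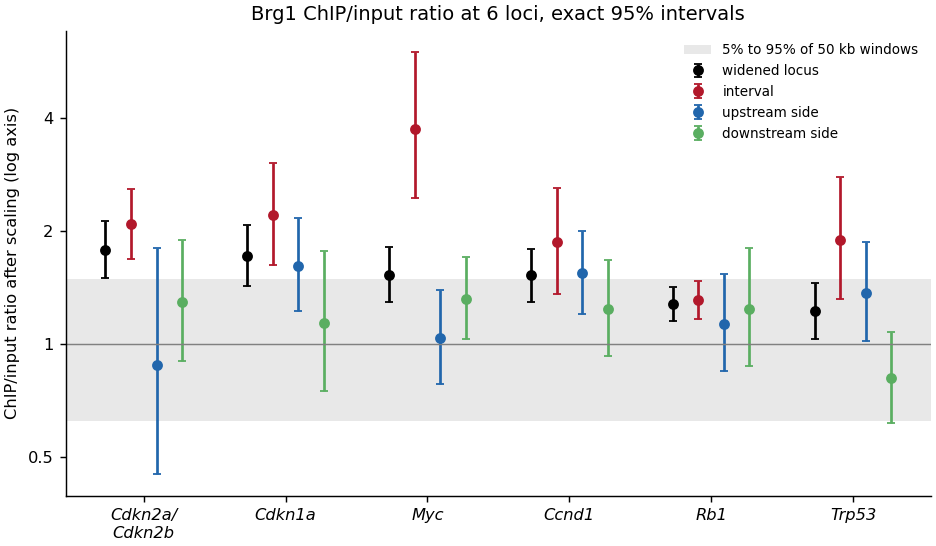
ChIP/input ratio after scaling (log axis) for each locus with its sides, the interval alone and each 20 kb side; bars are exact 95% intervals and the grey band spans 5% to 95% of the 50 kb windows (0.626 to 1.49). The Myc interval alone reached 3.75, while the whole-locus ratios ran from 1.22 at Trp53 to 1.78 at Cdkn2a and Cdkn2b.

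The excess of ChIP tags lay over the genes more than beside them at 4 loci. The Myc interval of 6 kb held 212 ChIP and 24 input tags, for a ratio of 3.75 (2.45 to 5.98), and this was 3.13 times (1.96 to 5.19) the ratio of its sides. For Trp53 the interval held 165 and 37 tags and its ratio of 1.89 (1.32 to 2.78, adjusted exact p = 0.00260) was 1.80 times (1.19 to 2.79) that of the sides, so the gene alone was called where the widened locus was not. The quotient was 1.75 (1.18 to 2.58) at Cdkn2a and Cdkn2b, with 521 and 106 tags in the interval, and 1.51 (1.02 to 2.25) at Cdkn1a, with 265 and 51. At Ccnd1 and Rb1 the intervals of the quotient included 1, at 1.32 (0.908 to 1.95) and 1.11 (0.857 to 1.43). With sides of 10 kb the quotient no longer excluded 1 at Cdkn1a (1.09, 0.643 to 1.82) or at Trp53 (1.58, 0.966 to 2.60).

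Of the 12 sides, those upstream of Cdkn1a and of Ccnd1 were themselves called. Over the genome, 6.52% of 125994 windows of 20 kb were called higher when adjusted among themselves. Among the 50 kb windows, to which the p-values of the sides were joined, the share was 4.75%. The 20 kb upstream of Cdkn1a held 244 ChIP and 64 input tags, giving a ratio of 1.62 (1.22 to 2.17, adjusted exact p = 0.00385). The 20 kb upstream of Ccnd1 held 295 and 81, a ratio of 1.55 (1.20 to 2.00, adjusted exact p = 0.00347). In the RefSeq gene table on GRCm38, used for names and order only, Cdkn1a lies beside the long noncoding RNA gene Trp53cor1 and beside Rab44, and Ccnd1 overlaps LTO1. Trp53 lies among Wrap53, Efnb3, Atp1b2, Shbg and the pseudogene Rps27-ps2, Cdkn2b overlaps the noncoding Gm12610, and Rb1 holds Lpar6 and Mir687 within it. Signal in a locus can therefore lie on a gene other than the one it is named for.

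Most of the starts carried an excess of ChIP tags. A window of 5 kb was centred on the edge of each interval where transcription begins by the strand of the gene. Since interval edges are rounded to 1 kb, the true start lies near the edge and not at it. In the shared interval this is the start of Cdkn2b, and the starts of Cdkn2a, inside the interval, had no window. Cdkn1a has 2 starts that lie 2.79 kb apart on GRCm38, and its window was set at the edge only, so the second start had no window of its own. Of the 6 start windows 5 were called higher, beside 2.15% of 482514 windows of 5 kb called higher and 0.267% called lower over the genome. The window at the Cdkn1a edge was not called. The share covers windows of the whole genome, and whether the starts of other genes are called as often was not tested.

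Trp53 had 133 ChIP tags at its start beside 6 of input, a ratio of 9.41 (4.21 to 26.1, adjusted exact p = 4.10e-10). The start of Rb1 held 117 and 8 tags, a ratio of 6.21 (3.05 to 14.7, adjusted exact p = 2.36e-07). The genes with the lowest whole-locus ratios had the highest ratios in these windows. These ratios rest on few input tags, with an input density of 0.529 and 0.705 of the autosomal mean. When the input was not allowed below its mean over the surrounding 50 kb, an alternative chosen after seeing the data, the ratio was 3.53 at Trp53 (adjusted exact p = 1.93e-05) and 3.31 at Rb1 (adjusted exact p = 1.85e-04), and both calls held. The order did not hold: under that floor Rb1 lay below Myc (3.52) and Trp53 level with it, and in start windows of 10 kb Rb1 (2.46) lay below Ccnd1 (2.90) and Myc (2.56).

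Myc and Ccnd1 carried the most ChIP tags at the start. Myc had 166 ChIP and 20 input tags (ratio 3.52, 2.21 to 5.92, adjusted exact p = 8.47e-07), and Ccnd1 had 170 and 25 (ratio 2.89, 1.89 to 4.58, adjusted exact p = 1.61e-05). Their ChIP density was 6.21 and 6.36 times the autosomal mean, against 4.98 for Trp53 and 4.38 for Rb1, so that the order by ChIP tags differed from the order by ratio. The input was also denser at both drivers, at 1.76 and 2.20 times its autosomal mean.

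The start of Cdkn2b, whose product inhibits Cdk4 and Cdk6, held 91 and 12 tags, a ratio of 3.22 (1.76 to 6.46, adjusted exact p = 0.00244). In a window of 2 kb this call was lost (ratio 2.86, adjusted exact p = 0.657). The window at the Cdkn1a edge held 77 and 21 tags, a ratio of 1.56 (0.950 to 2.65, adjusted exact p = 0.542), which does not show that it lacked Brg1, and covers 1 edge and not both starts. Its value depended on the placing of the window: 1 kb further into the gene, a placing tried after the data were seen, the ratio was 2.18 (adjusted exact p = 0.0246), with 10 kb it was 1.90 (adjusted exact p = 0.00298), and with 2 kb it was 0.721. Of the 15 pairs of start windows, 4 had a quotient with an interval above 1, without adjustment for the number of pairs. Trp53 lay above Ccnd1 (3.25, 1.25 to 9.97). Above Cdkn1a lay Trp53 (6.00, 2.22 to 19.0), Rb1 (3.96, 1.59 to 10.9) and Myc (2.26, 1.09 to 4.68).

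**Figure D2:**
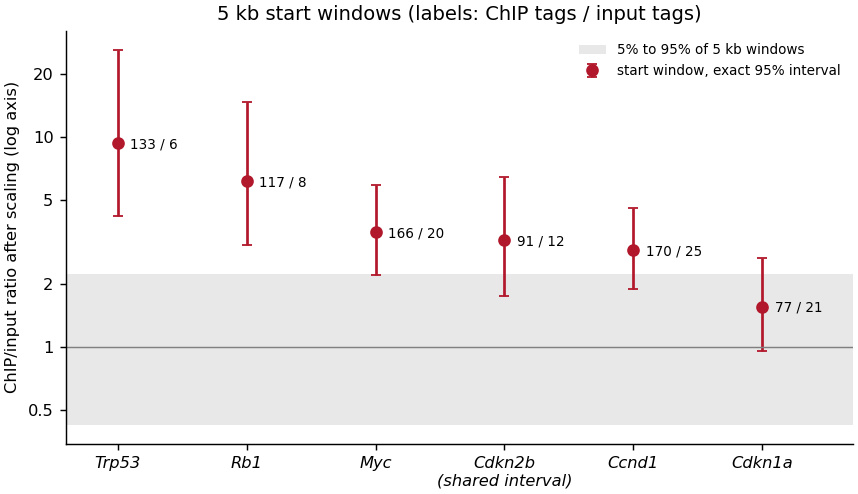
ChIP/input ratio after scaling (log axis) in the 5 kb at the start edge of each interval, with exact 95% intervals and the ChIP and input tags beside each point; the grey band spans 5% to 95% of 5 kb windows (0.424 to 2.22). The lower limits at Trp53 and Rb1 lie above the band, and the Cdkn1a point (1.56) lies within it.

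Summed over the 6 start edges, the ratio was highest in the first 2 kb inside the genes, at 389 ChIP tags against 37 of input, or a ratio of 4.46 (3.18 to 6.43). The 2 kb before the edge held 263 and 38 tags, a ratio of 2.94. The ratio fell to 2.32 from 2 to 5 kb inside and to 1.39 from 5 to 10 kb inside. From 10 to 20 kb inside it was 1.44 (568 and 167 tags), with 2.53 at Cdkn2a and Cdkn2b. It was 0.997 (416 and 177 tags) from 20 to 10 kb before the edge. It was 1.20 from 5 to 2 kb before the edge and 1.40 from 10 to 5 kb before it. The summed excess was thus nearest the start edges, and at 2 to 5 kb it was higher inside the edges than before them. The edges are rounded to 1 kb, so the bands within 2 kb cannot place the excess before or after a true start. Of the 404 ChIP tags from 2 to 5 kb inside, 113 were at Cdkn1a, whose 2 starts lie 2.79 kb apart on GRCm38. Ccnd1 went the other way at 2 to 5 kb, with 2.12 inside and 3.28 before. The other loci were higher inside, Trp53 by little (1.41 against 1.33). From 20 to 5 kb before the edge the Cdkn2a and Cdkn2b locus held no tags of either library, so those bands rest on the other loci.

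The individual loci differed in the shape of this signal. At Trp53 the 2 kb on each side of the edge held 54 and 65 ChIP tags against 2 and 3 of input, and from 5 to 10 kb inside the gene the counts were 36 and 17, a ratio of 0.899. Rb1 was similar, with 47 and 62 ChIP tags beside 4 input tags in each band, and 20 and 17 tags from 5 to 10 kb inside. Both tumour suppressors thus showed a narrow excess over the start. At Myc the excess spanned the edge and was higher in the gene, with 55 ChIP and 10 input tags (ratio 2.33) in the 2 kb before the edge, 84 ChIP and 6 input tags in the first 2 kb and 111 and 14 from 2 to 5 kb. At Ccnd1 it began upstream: the band from 5 to 2 kb before the edge held 85 and 11 tags, a ratio of 3.28, close to the 3.10 and 3.35 of the bands at the edge. Cdkn1a had a ratio of 0.796 (15 and 8 tags) in the last 2 kb before its edge and 2.82 (113 and 17 tags) from 2 to 5 kb inside. It also had 84 and 11 tags, a ratio of 3.24, from 10 to 5 kb upstream.

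**Figure D3:**
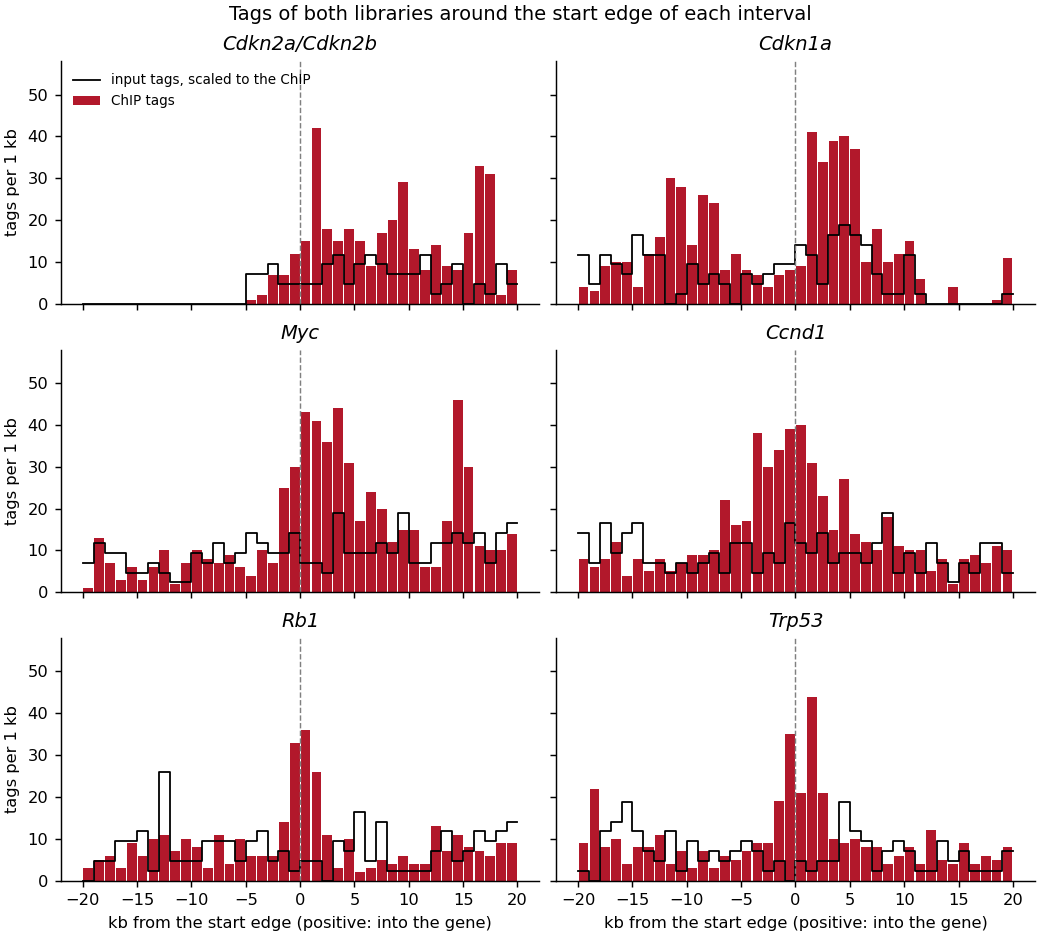
ChIP tags per 1 kb (red bars) and input tags scaled to the ChIP (black line) from 20 kb before to 20 kb inside the start edge of each interval (dashed line), positive into the gene. Trp53 and Rb1 have a narrow peak at the edge, Ccnd1 a broad one across it and Myc a broad one that extends into the gene. Cdkn1a has a gap at the edge between its upstream and inner clusters, and its 2 starts lie 2.79 kb apart on GRCm38. The flat stretch before Cdkn2b holds no tags of either library.

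In windows of 1 kb, 290 of the 451 in the loci had the 10 tags needed for testing, and 6 of them (2.07%) were called higher, beside 0.380% of 706215 windows called higher over the genome. None was called lower, where 0.00666% were over the genome. At an unadjusted p under 0.05, 45 windows of the loci (15.5%) were higher, beside 5.98% of all windows tested. Lower at this threshold were 3 of the 290 in the loci and 12008 of the 706215 tested over the genome. The tags of 1 kb are few, and the 6 calls were all lost when the input was not allowed below its mean over 10 kb. The minimum of 10 tags was set on the sum of both libraries, so a window could pass by its ChIP tags alone. Of the 1 kb windows tested over the genome, 55.7% had a ratio above 1, against 38.8% of the 10 kb windows.

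Trp53 had called windows on both sides of its start edge. The window from 69392000, centred 0.5 kb before the edge, held 35 ChIP tags and 0 of input, at least 4.95-fold higher than a floor of 3 input tags, and the exact interval began at 3.82 (adjusted exact p = 0.0112). The window from 69394000, 1.5 kb inside, held 44 and 1, a ratio of 18.7 with a wide interval of 3.18 to 754 (adjusted exact p = 0.00840). At Rb1 the window from 73726000, 0.5 kb before the edge, held 33 and 1 tags (ratio 14.0, 2.34 to 570, adjusted exact p = 0.0478). The called window at Cdkn2b, from 88956000 and centred 1.5 kb inside the gene, held 42 and 2 tags (ratio 8.91, adjusted exact p = 0.0295). All 4 windows lay within 2 kb of the start edge.

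Away from the starts, Rb1 had a second called 1 kb window at 73638000, 87.5 kb inside the gene, with 40 ChIP tags and 1 of input (ratio 17.0, 2.88 to 687, adjusted exact p = 0.0157). At Cdkn1a the called window lay upstream, from 29215000 and centred 11.5 kb before the edge, with 30 ChIP tags and 0 of input. It was at least 4.24-fold higher than the floor of 3 tags, and the exact interval began at 3.24 (adjusted exact p = 0.0247). The next window toward the gene held 28 and 1 tags, and those 8.5 and 7.5 kb before the edge held 26 and 2 and 24 and 3. None of these 3 neighbours was called.

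No 1 kb window of Ccnd1 or Myc was called. The window with the highest lower bound at Ccnd1, from 152129000 and 3.5 kb before the edge, held 38 and 2 tags (ratio 8.06, adjusted exact p = 0.0534). At Myc it was the window from 61818000, 2.5 kb inside, with 36 and 2 tags (ratio 7.64, adjusted exact p = 0.0693). The ChIP tags at the drivers were spread over more windows with a denser input. Windows with at least 20 ChIP tags numbered 11 at Myc, 10 at Ccnd1, 9 at Cdkn1a, 6 at Trp53 and 5 at Cdkn2a and Cdkn2b, and 11 along the much longer Rb1 locus. Together they made up 52 of 451, or 11.5%, where 1.93% of autosomal windows had as many.

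Runs of at least 3 such windows, a rule made after the data were seen, outline the dense stretches. Ccnd1 had a run of 7 kb from 4 kb before to 3 kb inside its edge with 235 ChIP and 31 input tags. Myc had a run of 7 kb from 2 kb before to 5 kb inside with 250 and 30, and a separate pair of windows 14.5 and 15.5 kb past the edge, beyond the end of its interval, with 46 and 6 and 30 and 5 tags. At Cdkn1a the run began 1 kb inside the edge and ended at 6 kb, with 191 and 29 tags. Trp53 had 121 and 5 tags from 1 kb before to 3 kb inside, and Rb1 had 95 and 5 from 1 kb before to 2 kb inside. The run at Cdkn1a was the one among these 5 that did not span the edge. The 2 Cdkn1a starts lie 2.79 kb apart on GRCm38, and whether this run meets the second was not tested. No run was found at Cdkn2a and Cdkn2b. The densest windows there were the called one and those 17.5 and 16.5 kb inside the edge, with 31 and 1 and 33 and 2 tags. On GRCm38.p6 the 250 bases before the Cdkn2b start are chr4:89311033-89311282. Those before the Cdkn2a start with 40 CpG dinucleotides are chr4:89294620-89294869. Positions were not converted, so whether the windows 17.5 and 16.5 kb inside meet that start was not tested.

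In windows of 10 kb, 46 of 47 were tested and 10 (21.7%) were called higher, beside 3.98% of 249877 windows called higher over the genome. None was called lower, where 1.11% were over the genome. All 6 loci had at least 1 such window. At the start edges these were Ccnd1 from 152120000 (291 ChIP and 42 input tags, ratio 2.94, adjusted exact p = 2.25e-10), Trp53 from 69390000 (186 and 27, ratio 2.92, adjusted exact p = 1.46e-06), Myc from 61810000 (246 and 45, ratio 2.32, adjusted exact p = 4.15e-06) and Rb1 from 73720000 (147 and 29, ratio 2.15, adjusted exact p = 0.00336).

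The inhibitor loci had 2 or 3 called 10 kb windows each, and Rb1 also had 2. At Cdkn2a and Cdkn2b the window from 88940000 held 182 ChIP and 24 input tags (ratio 3.22, adjusted exact p = 3.14e-07), and the next, which covers the Cdkn2b edge, held 168 and 32 (ratio 2.23, adjusted exact p = 6.87e-04). At Cdkn1a 3 adjacent windows from 29210000 to 29239999 were called, with 174 and 34 tags (ratio 2.17), 138 and 31 (ratio 1.89) and 187 and 39 (ratio 2.03), at adjusted p-values of 7.72e-04, 0.0250 and 0.00131 by the exact binomial test. The excess at Cdkn1a thus lay upstream and in the gene, without a single high peak at the start edge. It was not continuous: from 5 to 2 kb before the edge the ratio was 1.01 (19 and 8 tags). In the last 2 kb before the edge it was 0.796 (15 and 8 tags). Of the 138 ChIP tags of the middle window, 41 and 34 lay in its last 2 windows of 1 kb, inside the gene. The 2 starts of Cdkn1a lie 2.79 kb apart on GRCm38, and whether the excess inside the edge meets the second start was not tested.

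The highest ratio among the called 10 kb windows was inside Rb1 and not at its start. Centred 91 kb inside the edge, the window from 73630000 held 237 ChIP tags beside 21 of input, which gives 4.79 (3.06 to 7.88, adjusted exact p = 1.32e-13). Within it, a run of 6 kb from 86 to 92 kb inside the edge had 178 and 13 tags. The densest 500 bp of the whole locus, 87.1 kb inside, held 29 ChIP tags at 29 distinct positions, divided 14 to 15 between the strands, and 0 input tags. Which exon, intron or inner gene of Rb1 this stretch meets could not be read without an annotation on mm9.

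**Figure D4:**
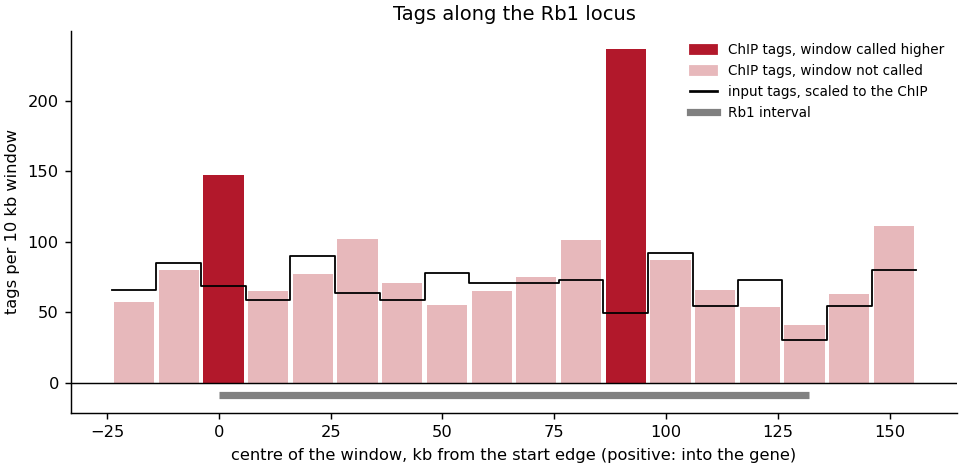
ChIP tags per 10 kb window along the Rb1 locus (bars, dark where called higher) with input tags scaled to the ChIP (black line), against the distance of the window's centre from the start edge in kb; the grey bar marks the Rb1 interval. Only the window over the start edge (147 ChIP tags) and that 91 kb inside (237 ChIP tags) were called, and the others lie closer to the line.

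The densest 500 bp of the other loci also held few repeated positions. Cdkn2b had 26 ChIP tags at 26 positions 1.26 kb inside its edge, and Trp53 had 26 at 26 positions 1.09 kb inside, both with 0 input tags. Ccnd1 had 31 at 29 positions 3.14 kb before its edge, and Myc had 32 at 29 positions 14.7 kb past its edge, beyond the gene's interval, beside 2 and 1 input tags. Cdkn1a had 27 at 27 positions 5.43 kb inside, beside 3 input tags. Positions with 2 ChIP tags were 0.680% to 2.50% of those in each locus, and plus-strand tags were 46.5% to 54.3%. On the chromosomes of the 6 loci the deposited ChIP file lists at most 2 tags at a position and the input at most 1, so repeats are limited in the files themselves, and not alike in both libraries.

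Some stretches held no tags at all, and the reason was not tested. No tag of either library lay between 88962615 and 89012816 on chromosome 4, a gap of 50.2 kb that begins a few kilobases upstream of the Cdkn2b edge, so 15 of the 20 windows of 1 kb on that side were empty. Brg1 upstream of Cdkn2b was therefore measured only close to the gene, by 29 ChIP and 14 input tags. Shorter gaps of 7.53 kb on the downstream side of Rb1 and 4.69 kb on that of Cdkn1a held no tags. In an empty window no ratio can be given, and nothing is known there of either library.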

How the data were processed

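The deposited values are counts: each file of the authors lists a chromosome, strand, position and the number of tags there, without normalization. The submitters' processing notes name Bowtie and mm9. Versions, settings and any filter on repeated tags are not given in the sources used here. Positions may be off by 1 bp, since no header states if counting begins at 0 or 1.

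Each tag was moved 75 bp along its strand and counted in windows of 1, 5, 10 and 50 kb over the genome and in the 6 loci. The scaling factor was the quotient of the tags on autosomes, 13215004 in the ChIP and 5608004 in the input. The test for regions with at least 10 tags was the exact binomial test, two-sided with p as 2 times the smaller tail, with Benjamini-Hochberg adjustment over all windows of the same size. Locus, interval and side p-values were joined to those of the 50 kb windows and start-window p-values to those of the 5 kb windows. A call needed both a ratio of 1.5 or more (for lower calls, its inverse or less) and an adjusted p below 0.05. Ratios have exact Clopper-Pearson 95% intervals, and quotients of ratios have exact conditional ones. The windows named were every called 1 kb and 10 kb window of the loci and, where a locus had no called 1 kb window, its window with the highest lower bound. The dense stretches and 500 bp peaks were described after their values were seen.

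The members, intervals and rules were chosen with earlier results of these data known. The steps were tested on simulated data. Alternatives covered scaling, repeated tags, tag shift, minimums, window sizes and sides. A list of further pathway genes was not analysed here, since coordinates were not converted between builds. Neighbours came from a RefSeq table on GRCm38, where 7 of 7 symbols matched. Python 3.11.15, numpy 2.4.6, scipy 1.17.1, pandas 2.3.3 and matplotlib 3.10.9 were used.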

Additional observations from a re-analysis of the deposited data

How the results depend on the processing

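No result for a locus, a start window or a named window that passed the test changed direction under the alternatives run. The count of 1 kb windows called higher, 6, varied: it was 23 with scaling by sparsely tagged windows, 25 with a minimum of 20 tags, 16 in windows of 2 kb, 2 with no minimum, 2 with 1 tag per strand within 5 bp, and 0 with the input not below its mean over 10 kb and in windows of 500 bp. The share called higher over the genome moved too. From 0.380% it went to 2.07%, 19.4%, 0.802%, 0.0295%, 0.0847%, 0.0169% and 0.00376% under these settings in the same order. How many windows of the loci were tested under the other minimums, window sizes and tag counting was not recorded. Those counts therefore cannot be set against these shares. The count of 10 kb windows called higher went from 10 to 18 with scaling by sparsely tagged windows, where the share over the genome went from 3.98% to 11.0%, and was within 1.5 times of 10 under the other 11 alternatives. Counting 1 tag per strand within 5 bp, chosen after seeing the data, ended the calls of the Ccnd1 locus (ratio 1.47) and the Myc locus (1.465). Scaling by sparsely tagged windows called Rb1 (1.66) and Trp53 (1.58), and Trp53 was also called in its interval alone (1.89). The edge of Cdkn1a was called in 10 kb (1.90) and with the window 1 kb inside (2.18), and that of Cdkn2b was not called in 2 kb (2.86). Of 48 alternative values of the locus ratios 43 kept their side of the threshold, as did 63 of 66 for the start windows and 98 of 100 for the named 10 kb windows. Of 88 values for the named 1 kb windows 15 lost and 5 gained the call. The cause was not tested. No paired analysis was possible because there is a single library of each kind. With 2.27 input tags in a mean 1 kb of the autosomes, a single input tag moves a 1 kb ratio.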
